A study of Mus musculus with 16 samples.

Results

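The interferon response and antigen presentation genes are a group of 43 mouse genes, taken by name from 54193 annotated genes. The group holds the interferon transcription factors, the sensors of foreign RNA and DNA, the antiviral effectors, the interferon-induced GTPases, and the genes that cut, carry and present peptides on MHC class I. Each gene's level was the sum of the expected counts of its transcripts. All 43 genes had an entry in each of the 16 libraries, but Mx1, Mx2 and Zbp1 had no count in some of them. The cells were mouse brain microvascular endothelial cells (mBMEC), grown in culture from the brains of 8 to 10 week old Cdh5(PAC)-CreERT2/Pdcd10 fl/fl mice on a C57BL/6J background. Every culture, the controls included, carried the floxed Pdcd10 (Ccm3) allele and the tamoxifen-inducible Cre driven by the endothelial Cdh5 promoter. KO cells had been given 4-OH-tamoxifen (4-OHT) and WT cells had not, so 4-OHT and loss of Ccm3 cannot be told apart. The groups were WT (n = 3), WT with 10 µM propranolol (WT+P, n = 2), WT with 100 nM rapamycin (WT+R, n = 2), KO (n = 3), KO with 10 µM propranolol (KO+P, n = 3) and KO with 100 nM rapamycin (KO+R, n = 3), with each drug given for 24 h. Propranolol blocks beta-adrenergic receptors, and rapamycin inhibits the kinase complex mTORC1. A culture came from the pooled brains of several mice, so no library stands for a single animal.

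Interferons are secreted proteins that warn cells of infection. Type I interferon binds the receptor pair Ifnar1 and Ifnar2 and acts through a factor built from Stat2 and Irf9, which recognises the interferon-stimulated response element (ISRE) in the promoters of antiviral genes. Interferon gamma binds Ifngr1 and Ifngr2 and acts through a different site (GAS), and it is the stronger inducer of the guanylate binding proteins, the immunoproteasome and the class I pathway. Endothelial cells carry MHC class I at rest and respond to both kinds of interferon.

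The libraries held between 18.83 M and 26.2 M counts. Pdcd10 itself checked the genotype labels: it stood at 9.72, 11.0 and 9.73 CPM (counts relative to library size) in the KO libraries, and at 11.5, 31.2 and 47.0 CPM in the WT libraries. The library labelled WT replicate 1 therefore went against its label, with Pdcd10 close to the KO level, while the libraries with a drug lay on the sides of their labels (27.7 to 60.8 CPM in WT+P and WT+R, 7.83 to 16.7 CPM in KO+P and KO+R). The edgeR calls, named fold changes and medians over the group against WT are also given without it. All DESeq2 calls, counts at an unadjusted p, and counts of groups without overlap and of pairs are given only with it. Wherever WT values are listed its value comes first. The endothelial label held, since the summed level of 11 endothelial markers ranged from 4275 to 9618 TPM (the count per transcript length, scaled to the library). Among 8 microglia and macrophage markers most of the sum was Cd68, the other 7 adding up to at most 1.68 TPM in a library, with P2ry12 at 0. The gap was smallest in WT+R replicate 1, with Cd68 at 1.68 TPM and the other 7 at 1.39 TPM. The T and NK cell markers, 4 of 6 of which had no count, reached 0.17 TPM, neuron markers 0.786 TPM, oligodendrocyte markers 1.1 TPM, astrocyte markers 5.18 TPM, B cell markers 17.2 TPM and fibroblast markers 60.1 TPM. Mural markers reached 515 TPM, of which all but 4.82 TPM or less was Acta2. In bulk RNA, fewer cells of a type and less RNA per cell cannot be told apart.

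Promoter windows from 250 bases before to 50 bases after the canonical transcript start were searched on both strands for the letters GAAANNGAAA, the core of the ISRE, and TTCNNNGAA, the core of GAS. The ISRE letters were found in 15 of the 43 genes (34.9%) and in 3.84% of the 21770 promoters of protein-coding genes, and the GAS letters in 9 genes (20.9%) and in 8.81% of those promoters. By role, the ISRE letters were found for 3 of 4 genes of the sensor list, 2 of 2 genes of the Isg15 system, 4 of 14 antiviral effectors and 3 of 7 guanylate binding proteins, and for none of the 9 genes of the immunoproteasome, peptide loading and class I molecules. The sensor list also holds Trim25, which is not itself a sensor and had no match. Zbp1, a sensor of Z-form nucleic acid, had 4 matches, and Isg15 had 3 that overlapped each other. In Bst2 a GAS match overlapped an ISRE match.

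**Figure D1:**
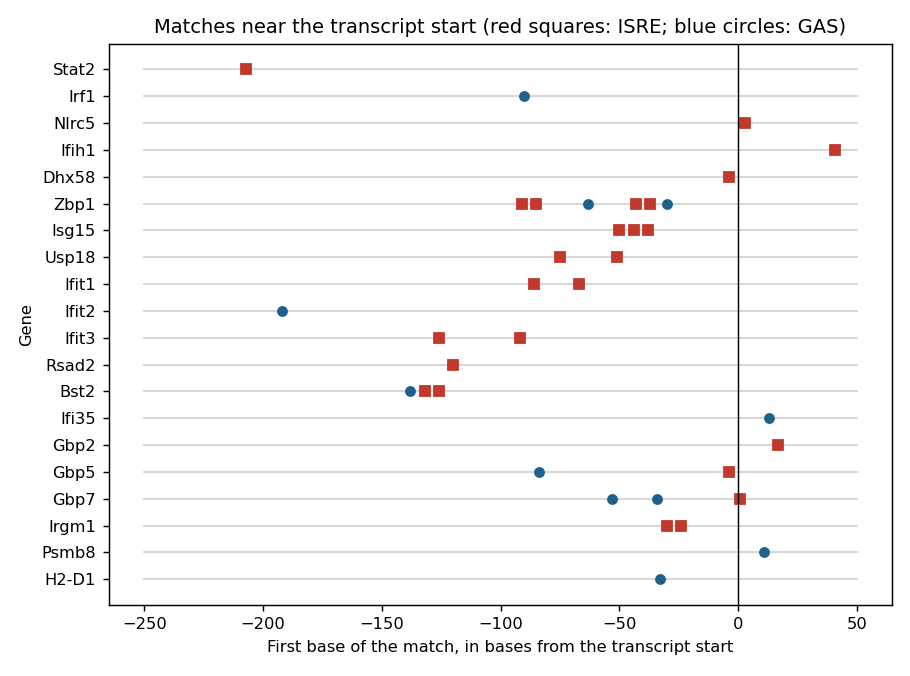
Position of ISRE matches (red squares) and GAS matches (blue circles) in the 20 genes of the group that had one, as bases from the transcript start (x axis, the vertical line is the start). Most ISRE matches lay between 132 bases before the start and the start itself, and several genes, such as Isg15 and Zbp1, had more than 1.

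The 200 bases before the start are shown for 6 genes, 5 because the drug results below turn on them and Isg15 as the reference for an ISRE promoter. They were read from GRCm39, 5′ to 3′ on the strand of the gene, and capitals mark the matches. No match means only that these letters are not in the window, as in Cmpk2 and Xaf1.
Cmpk2, chr12:26519003-26519202, strand +: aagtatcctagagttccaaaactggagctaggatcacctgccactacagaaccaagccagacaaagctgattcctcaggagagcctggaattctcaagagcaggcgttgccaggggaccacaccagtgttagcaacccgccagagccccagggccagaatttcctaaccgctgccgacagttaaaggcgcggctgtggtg
Rsad2, chr12:26506452-26506651, strand -: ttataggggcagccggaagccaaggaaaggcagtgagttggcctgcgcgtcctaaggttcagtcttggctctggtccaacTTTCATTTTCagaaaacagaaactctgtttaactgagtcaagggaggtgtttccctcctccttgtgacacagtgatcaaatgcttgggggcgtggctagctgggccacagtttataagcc
Ifit2, chr19:34527845-34528044, strand +: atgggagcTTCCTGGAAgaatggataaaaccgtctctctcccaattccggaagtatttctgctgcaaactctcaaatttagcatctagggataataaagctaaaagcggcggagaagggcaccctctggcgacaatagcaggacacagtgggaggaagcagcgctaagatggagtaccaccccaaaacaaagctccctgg
Xaf1, chr11:72192197-72192396, strand +: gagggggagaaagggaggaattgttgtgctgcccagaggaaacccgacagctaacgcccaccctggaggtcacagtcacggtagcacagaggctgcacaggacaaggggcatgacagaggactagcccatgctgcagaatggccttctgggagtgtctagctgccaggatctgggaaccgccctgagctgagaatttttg
Irgm1, chr11:48762248-48762447, strand -: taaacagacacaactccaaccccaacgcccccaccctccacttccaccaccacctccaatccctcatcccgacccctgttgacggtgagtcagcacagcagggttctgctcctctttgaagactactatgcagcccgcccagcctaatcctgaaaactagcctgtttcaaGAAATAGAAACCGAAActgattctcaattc
Isg15, chr4:156285304-156285503, strand -: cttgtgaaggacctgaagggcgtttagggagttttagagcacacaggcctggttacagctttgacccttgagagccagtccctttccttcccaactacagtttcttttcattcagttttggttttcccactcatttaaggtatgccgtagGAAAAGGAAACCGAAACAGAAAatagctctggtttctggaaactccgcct

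Cmpk2 and Rsad2 are neighbours that are transcribed away from each other, so that both windows lie in the interval between their starts. Rsad2 had a single ISRE match that began 120 bases before its start, Irgm1 had a pair of overlapping ones beginning at 30 and 24 bases, and Ifit2 had a GAS match at 192 bases. A match is a description of the letters, and whether a factor bound there was not measured.

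Levels are compared between genes in TPM, which corrects for transcript length. The class I molecules led the group: B2m, the invariant light chain, had a median of 3005 TPM over the 16 libraries (range 1753 to 4145), followed by the heavy chains H2-D1 (952 TPM) and H2-K1 (685 TPM). Bst2, which tethers budding virus to the cell surface, followed at 598 TPM, and its range of 447 to 760.2 TPM overlapped that of both heavy chains. Tapbp, which links the peptide transporter to class I, came next at 118 TPM (69.5 to 241), and its range overlapped that of Psmb10, which had a median of 51.2 TPM (34.4 to 98.8). Psmb10, Psmb8 (47.0 TPM) and Psmb9 (12.2 TPM) are the catalytic subunits of the immunoproteasome, and Tap2 (44.4 TPM) and Tap1 (17.6 TPM) form the transporter that brings peptides into the endoplasmic reticulum. The antiviral effectors were mostly low, with Ifit1 at 4.25, Cmpk2 at 3.45, Rsad2 at 2.4, Ifit2 at 1.56 and Ifi44 at 1.5 TPM. The lowest were Zbp1 (1.16 TPM), Mx2 (1.06 TPM), the class I transactivator Nlrc5 (0.797 TPM) and Mx1 (0.0265 TPM), and neighbours in the order overlapped in range except B2m with H2-D1 and Bst2 with Tapbp.

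**Figure D2:**
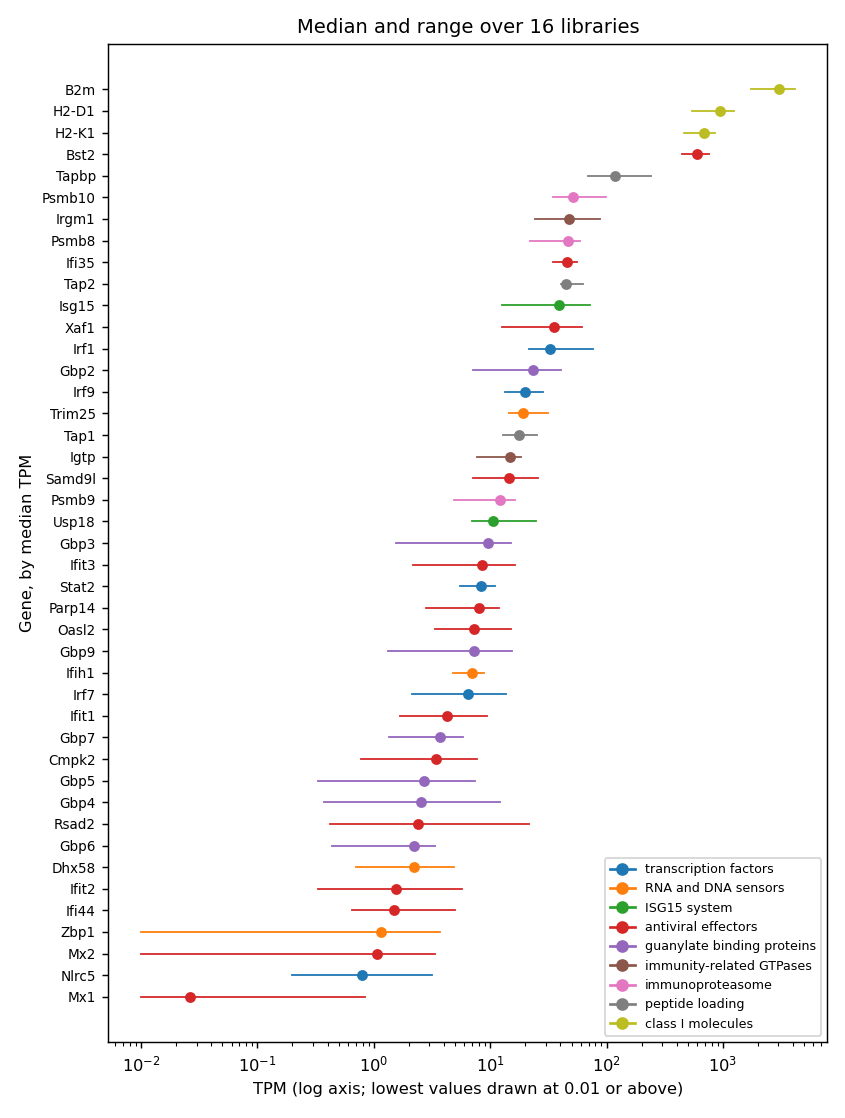
Level of the 43 genes in TPM (x axis, log scale), ordered by median. Points are medians over the 16 libraries, lines run from the lowest to the highest library, and colours give the role. B2m, H2-D1, H2-K1 and Bst2 stood at 598 TPM or more, while most antiviral effectors stood under 10 TPM.

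Mx1, a GTPase against influenza that is known to be defective in most inbred mouse strains, had between 0 and 7 counts per library and was not tested. Its highest values were in KO+P, at 0.125, 0.292 and 0.207 CPM, beside 0.115 to 0.16 CPM that a count of 0 allows as an upper limit (3 counts, for counting error only). The other 42 genes passed the filter on low counts. Of 10 interferon genes searched as ligands, 8 had no count in any library, Ifnb1 reached 2 counts and Ifnk 4 counts. The receptors were present, with medians of 54.8 TPM for Ifnar1, 108 TPM for Ifnar2, 61.0 TPM for Ifngr1 and 35.7 TPM for Ifngr2.

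**Figure D3:**
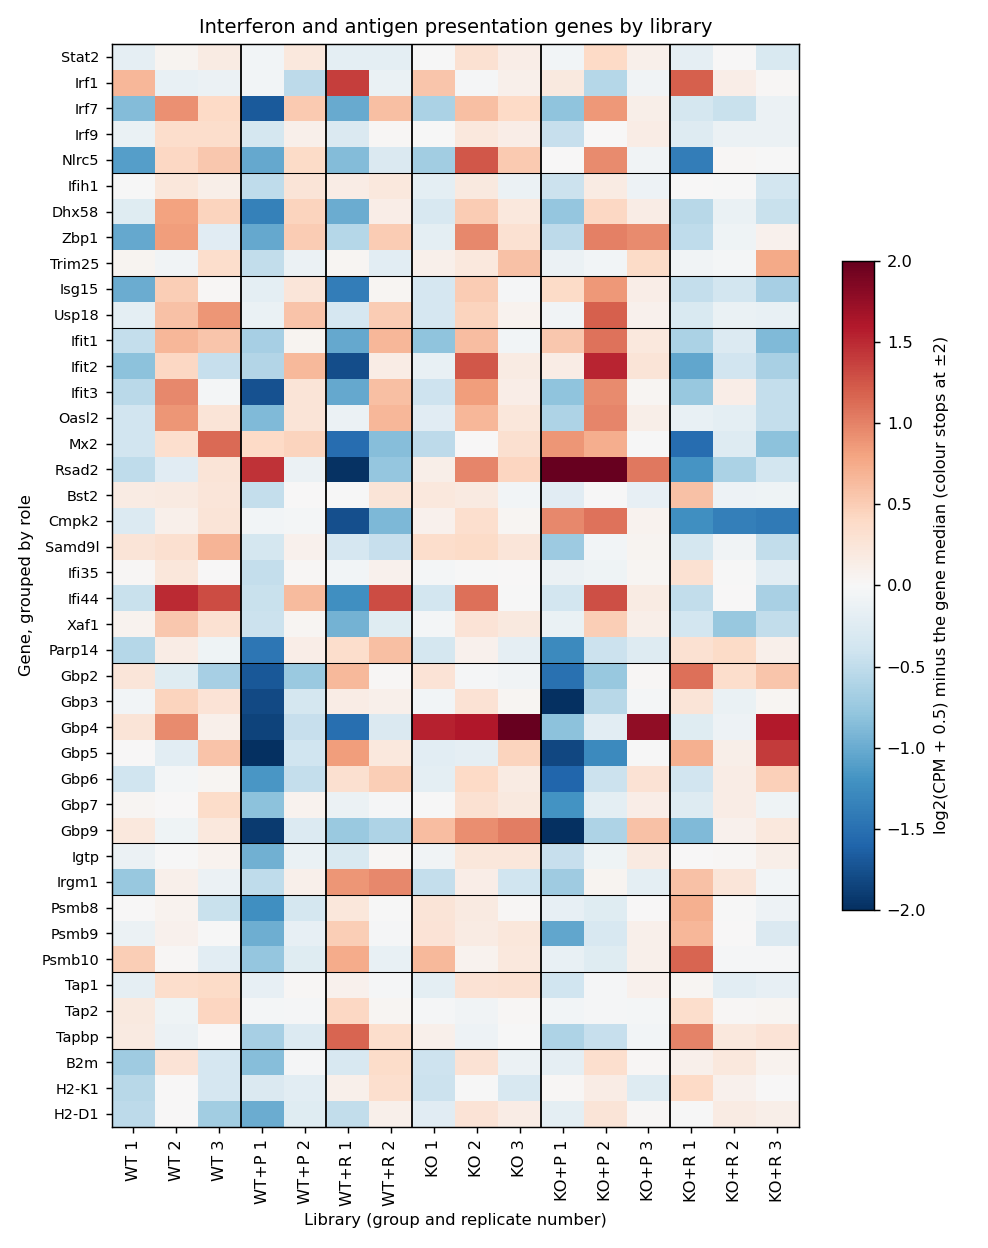
Each tested gene (rows, grouped by role) in each library (columns, by group and replicate number), as log2(CPM + 0.5) minus the median of that gene, with colours that stop at 2 in both directions. The guanylate binding proteins were low in WT+P replicate 1 and KO+P replicate 1, Rsad2 was high in KO+P, and Cmpk2 was low in all 5 libraries with rapamycin.

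The comparison of untreated KO with WT cells asked whether loss of Ccm3 altered the group. No gene passed the test (0 of 42 with edgeR, where a call needs an adjusted p-value below 0.05 together with a fold change of over 1.5), against 0.00674% of all genes tested. With the replicate number as a block, which is explained with the rapamycin results, 0 were called too, against 0.108% of all genes higher and 0.0741% lower. At an unadjusted p under 0.05 the count was also 0, while 3.3% of all genes were higher and 2.77% lower at that level, and 0 were called with DESeq2 (0.478% of all genes). The median log2 fold change of the 42 genes was 0.01 (22 above and 20 below 0), against −0.01 for all genes, and without the library labelled WT replicate 1 it was −0.10 (17 above and 25 below 0), again with 0 called. The groups did not overlap for 3 genes higher in KO and 1 lower, against 6.69% and 6.5% of all genes, and 14 genes were higher and 8 lower in all 3 same-number pairs, against 21.3% and 22.2%. The genes with the smallest p-values were Gbp4, H2-D1, Tap2 and Gbp9.

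Gbp4 and Gbp9 are guanylate binding proteins, GTPases that attack the membranes of intracellular pathogens. Gbp4 stood at 15.5, 16.2 and 30.3 CPM in KO and at 6.07, 10.1 and 5.41 CPM in WT, and Gbp9 at 31.3, 38.9 and 41.4 CPM in KO and 23.3, 18.9 and 23.5 CPM in WT. Every KO value lay above every WT value for both genes, but the adjusted p-values of edgeR were 0.874 (log2 fold change 1.52 ± 0.75, SE) and 0.996 (0.77 ± 0.55), and 1 for both without the library labelled WT replicate 1 (1.41 and 0.80). Their annotated exons overlap each other and Gbp8, and Salmon shares reads among such transcripts, so the split between them is uncertain. The class I heavy chain H2-D1 stood at 1010, 1415 and 1303 CPM in KO and 818, 1184 and 726 CPM in WT, with overlap between the groups (log2 fold change 0.45 ± 0.24, adjusted p = 0.92, and 0.37 with adjusted p = 1 without the library labelled WT replicate 1). Tap2 stood at 77.3, 74.9 and 79.8 CPM in KO and 90.2, 74.3 and 106 CPM in WT (−0.22 ± 0.14, adjusted p = 0.973 in edgeR, and −0.23 with adjusted p = 1 without that library). Cd68 stood at 17.6, 27.8 and 41.0 TPM in KO and at 7.25, 22 and 14.4 TPM in WT, and its part in these values was not tested.

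**Figure D4:**
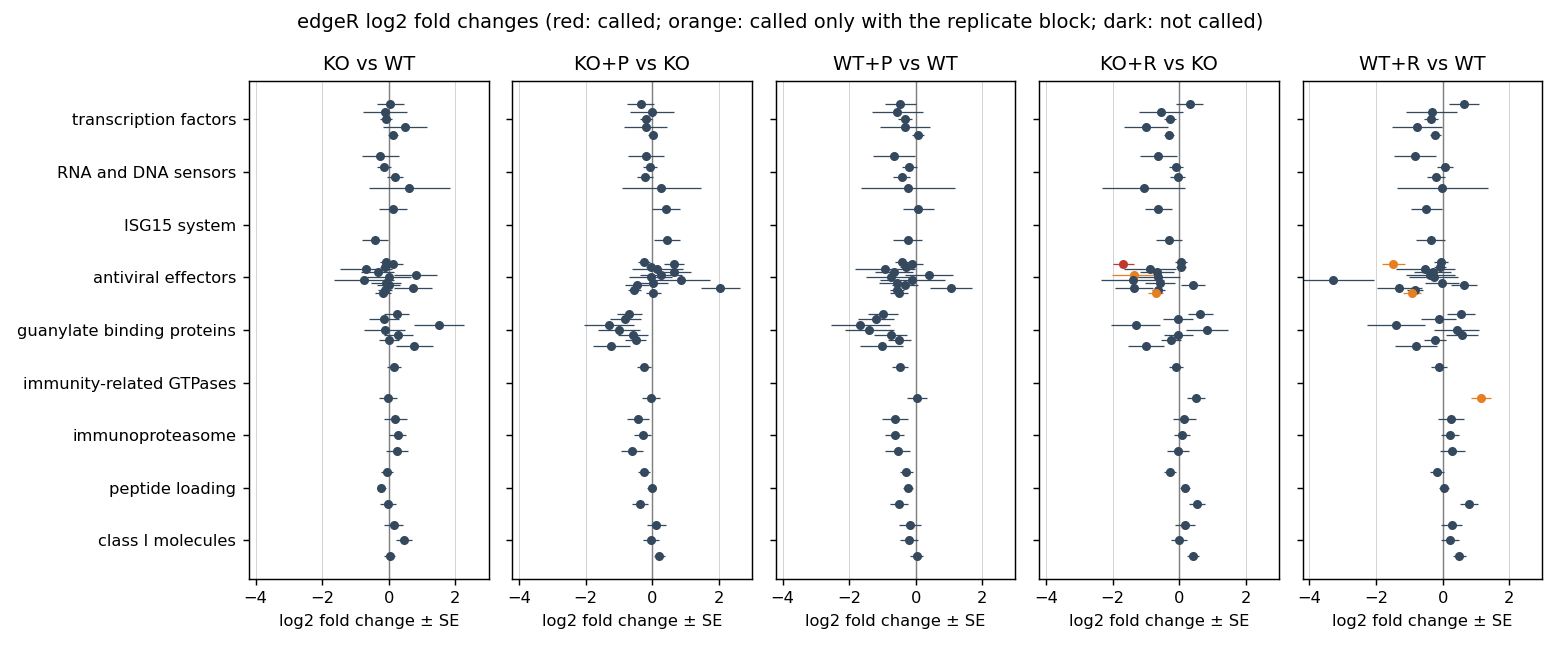
Log2 fold change (x axis) with its standard error for the 42 tested genes, grouped by role (y axis), in the 5 comparisons of a pair of groups. Red marks Cmpk2 in KO+R, the single edgeR call without the replicate block, and orange marks the genes that edgeR called only with it. The point at −3.28 in WT+R is Mx2, which had no count in a WT+R library.

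Rapamycin gave the one edgeR call in the group without the replicate block, for the antiviral effector Cmpk2 in KO cells. The share of members called there was close to that of all genes. DESeq2 without the block called 1 member higher and 4 lower in WT+R, against 3.64% of all genes. Cmpk2, the mitochondrial nucleotide kinase that is induced by interferon beside Rsad2, stood at 2.54, 2.26 and 2.18 CPM in KO+R and at 7.05, 8.43 and 6.84 CPM in KO. It stood at 1.61 and 3.31 CPM in WT+R and at 5.38, 7.17 and 8.0 CPM in WT. All 5 libraries with rapamycin lay below all 6 untreated ones. In KO cells Cmpk2 fell 3.19-fold (log2 fold change −1.68 ± 0.31, SE, adjusted p = 0.0196, edgeR), and it was the only member called, 1 of 42, where 0.802% of all genes were called lower, 0.708% higher and 1.51% in either direction. Leaving out any of the 6 libraries ended the call (adjusted p from 0.056 to 0.0907, log2 fold change from −1.73 to −1.58), and 0 members were then called. In WT cells the log2 fold change was −1.48 ± 0.35 with an adjusted p of 0.0575, and −1.62 with 0.0811 without the library labelled WT replicate 1. No member was called in WT+R without the block (0 of 42 with edgeR, against 1.4% of all genes, and 0 without the library labelled WT replicate 1). At an unadjusted p under 0.05, 3 were higher and 4 lower, against 6.18% and 6.47% of all genes.

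Libraries with the same replicate number deviated together, and with the number as a block in the model 3 members were called in each genotype. In KO+R all 3 were lower, where 1.94% of all genes were called higher and 3.04% lower, and in WT+R 2 were lower and 1 was higher, where 2.18% were called higher and 2.39% lower (4.98% and 4.56% in either direction). Cmpk2 was among them in both (log2 fold change −1.67 ± 0.28, adjusted p = 0.006 in KO+R, and −1.59 ± 0.34, adjusted p = 0.0187 in WT+R, edgeR). Xaf1, an interferon-induced gene that promotes apoptosis, was also called lower in both. It stood at 10.9, 8.2 and 9.93 CPM in KO+R against 13.8, 17.3 and 16.4 CPM in KO, and at 7.12 and 11.9 CPM in WT+R against 14.9, 20.9 and 17.7 CPM in WT. The groups did not overlap in either genotype. The blocked log2 fold changes were −0.69 ± 0.18 (adjusted p = 0.0432) in KO+R and −0.92 ± 0.21 (adjusted p = 0.0264) in WT+R, against adjusted p-values of 0.194 and 0.129 without the block. In WT+R the call was lost without the library labelled WT replicate 1 (adjusted p = 0.0679 with the block, 0.149 without it), while that of Cmpk2 was kept with the block (adjusted p = 0.0319).

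Ifit2 binds foreign RNA and holds back its translation. It stood at 1.75, 3.03 and 2.45 CPM in KO+R and at 3.68, 10.4 and 4.66 CPM in KO, below the untreated library of the same number in 3 of 3 pairs. It was called lower with the block (−1.25 ± 0.25, adjusted p = 0.0141) and not without it (−1.37 ± 0.66, adjusted p = 0.422, edgeR). In WT cells Ifit2 stood at 0.85 and 4.64 CPM with rapamycin and at 2.12, 5.68 and 2.87 CPM without, and the groups overlapped.

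Irgm1, an immunity-related GTPase that guards the cell's own vesicles and directs autophagy of microbes, went the other way. It stood at 105 and 110.0 CPM in WT+R and at 33.1, 60.6 and 52.3 CPM in WT. With the block it was called higher (1.15 ± 0.25, adjusted p = 0.0217, edgeR), and without it the adjusted p was 0.0785 (1.14 ± 0.30, a 2.21-fold difference). Without the library labelled WT replicate 1, which had the lowest value, the log2 fold change was 0.93 and the adjusted p 0.213, or 0.0974 with the block. In KO cells Irgm1 stood at 84.7, 67.0 and 54.4 CPM with rapamycin and at 40.4, 62.2 and 42.7 CPM without, higher in 3 of 3 pairs but with overlap between the groups. The related GTPase Igtp showed no such gap, at 14.0 and 17.7 CPM in WT+R and 16.0, 17.3 and 18.4 CPM in WT.

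**Figure D5:**
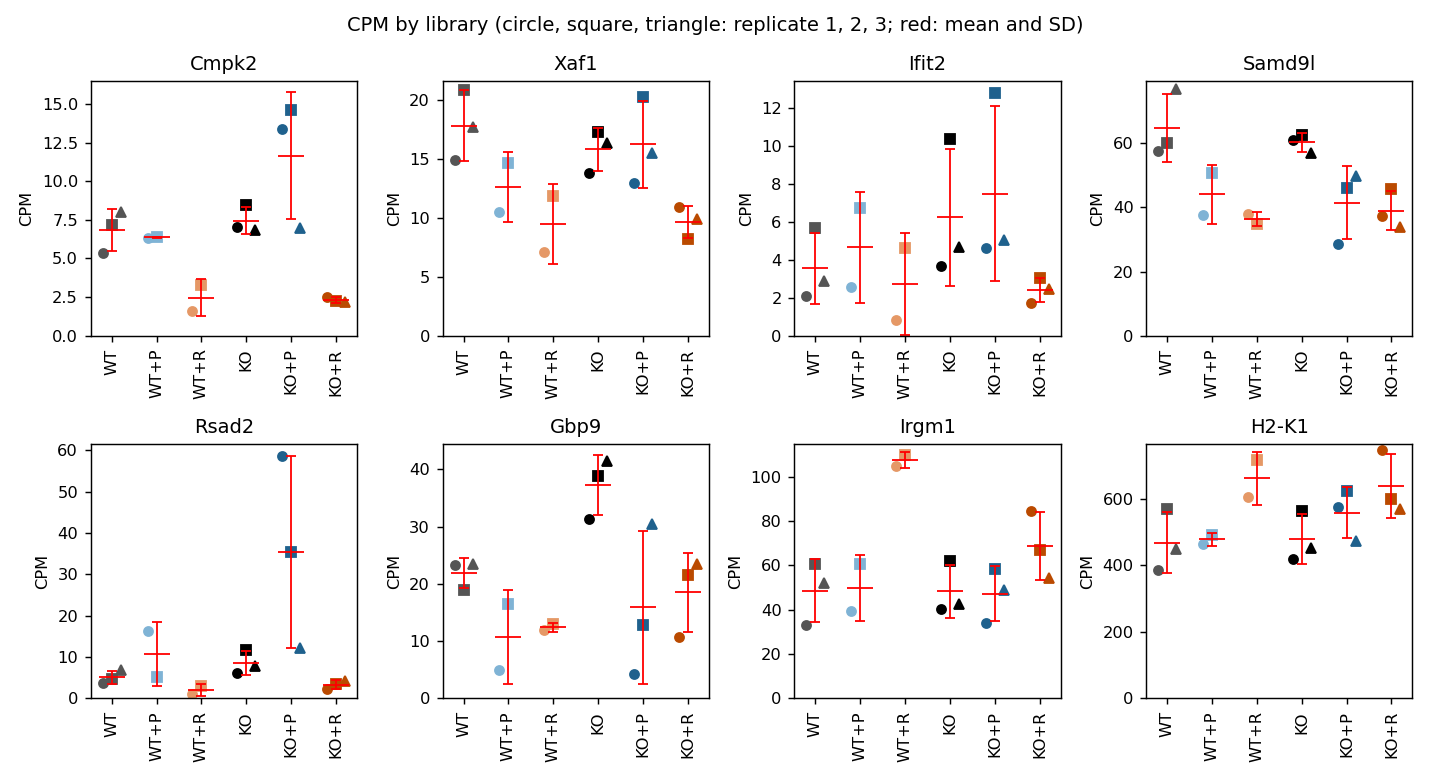
CPM (y axis, from 0) of 8 genes in each library by group, with the mean (red line) and SD (red bar) of each group. Circles, squares and triangles are replicates 1, 2 and 3. Cmpk2 was between 1.61 and 3.31 CPM in the rapamycin libraries and between 5.38 and 8.43 CPM in the untreated ones, and Rsad2 reached 58.7 CPM in KO+P replicate 1.

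Over the antiviral effectors, 13 of 14 of which were tested, 10 log2 fold changes lay below 0 in KO+R (median −0.66) and 12 in WT+R (median −0.37). In KO+R between 10 and 12 of them lay below 0 without any single library, whereas in WT+R the median turned to 0.07 without WT+R replicate 1 and lay at −0.64 without the library labelled WT replicate 1. Beyond the genes called, Rsad2 (viperin, which makes a chain-terminating nucleotide) stood at 2.22, 3.49 and 4.28 CPM in KO+R against 6.16, 11.7 and 7.82 CPM in KO, and at 1.07 and 3.09 CPM in WT+R against 3.82, 4.78 and 6.85 CPM in WT. Samd9l, an inhibitor of translation in infected cells, stood at 37.4, 45.7 and 33.9 CPM in KO+R against 61.1, 62.6 and 56.9 CPM in KO, and at 37.8 and 34.8 CPM in WT+R against 57.4, 60.0 and 76.9 CPM in WT. Neither gene overlapped between the groups in either genotype, and neither was called by edgeR. Parp14, an ADP-ribosyltransferase, was an effector on the other side, at 47.3, 50.0 and 40.8 CPM in KO+R against 29.6, 40.5 and 33.4 CPM in KO, and at 48.5 and 58.1 CPM in WT+R against 25.4, 42.4 and 35.7 CPM in WT. These last 3 genes were singled out after their values were seen.

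The transcription factors, the sensor list (with Trim25) and the Isg15 system mostly lay on the side of the effectors, with no call. Their medians in KO+R were −0.31 (4 of 5 below 0), −0.35 (4 of 4) and −0.46 (2 of 2), and in WT+R −0.33 (4 of 5), −0.11 (3 of 4) and −0.43 (2 of 2). Without the library labelled WT replicate 1 the WT+R medians were −0.49, −0.40 and −0.72. Without WT+R replicate 1 that of the Isg15 system was 0.05, with neither gene below 0, and 2 of 4 genes of the sensor list lay below 0. Irf9, the DNA-binding partner of Stat2, stood at 24.6, 27.3 and 27.3 CPM in KO+R against 29.5, 34.1 and 32.6 CPM in KO, and at 24.2 and 29.9 CPM in WT+R against 26.8, 37.7 and 38.0 CPM in WT. Isg15, a small protein that is attached to others like ubiquitin, stood at 7.52, 8.16 and 6.59 CPM in KO+R against 8.41, 15.4 and 10.5 CPM in KO, and at 3.8 and 11.0 CPM in WT+R against 5.15, 15.3 and 10.9 CPM in WT. In WT cells the groups overlapped for both genes. The antigen presentation genes were divided. All 3 class I molecules had log2 fold changes above 0 with rapamycin in both genotypes (median 0.18 in KO+R and 0.27 in WT+R), with no member called, although 2 of the 3 lay below 0 in WT+R without WT+R replicate 2, and 1 in KO+R without KO replicate 1 or KO+R replicate 2. H2-K1 stood at 747, 599 and 570.1 CPM in KO+R against 420.5, 564 and 451 CPM in KO, and at 606 and 718 CPM in WT+R against 386, 568 and 450.0 CPM in WT, and neither pair of groups overlapped. Tapbp stood at 355, 207 and 216 CPM in KO+R against 191, 166 and 177 CPM in KO, and at 399 and 227 CPM in WT+R against 202, 164 and 180.2 CPM in WT, again without overlap. The peptide loading genes as a list had medians of 0.18 in KO+R and 0.05 in WT+R, with Tap1 on the lower side in both, at 33.1, 28.0 and 28.9 CPM in KO+R against 28.3, 39.7 and 40.1 CPM in KO, and at 34.3 and 31.9 CPM in WT+R against 28.4, 41.2 and 42.4 CPM in WT. For Tapbp, other annotated genes cover 52.8% of the exonic bases, and for H2-K1 they cover 26.8%, so that reads without strand can come from either gene. The immunoproteasome had medians of 0.09 in KO+R (2 of 3 above 0) and 0.25 in WT+R (3 of 3 above 0), with 0 of 3 called. The groups overlapped for all 3 genes in both genotypes. In KO+R the side depended on KO+R replicate 1, without which the median was −0.33. The guanylate binding proteins had medians of −0.03 in KO+R (5 of 7 below 0) and −0.12 in WT+R (4 of 7), with none called by edgeR. Gbp2 stood at 75.6, 44.8 and 51.6 CPM in KO+R against 42.3, 34.5 and 33.3 CPM in KO, whereas Gbp9 stood at 10.7, 21.5 and 23.4 CPM against 31.3, 38.9 and 41.4 CPM. They were the 2 of the 7 without overlap in KO+R, 1 higher and 1 lower, against 10.9% and 13.2% of all genes. Both were chosen with their values known.

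Over all 42 genes the median log2 fold change was −0.25 in KO+R (28 below 0, against 53.1% of all genes) and −0.15 in WT+R (27 below 0, against 51.4%), where all genes had −0.02 and −0.01. The WT+R median was −0.29 without the library labelled WT replicate 1 and 0.02 without WT+R replicate 1. Groups did not overlap for 8 genes lower and 5 higher in KO+R, against 13.2% and 10.9% of all genes, and for 9 lower and 5 higher in WT+R, against 14.7% and 14%. In KO+R 17 genes were lower and 7 higher in all 3 same-number pairs, against 31.2% and 25.1% of all genes, and in WT+R 20 were lower and 11 higher in both pairs, against 37.7% and 33.5%. DESeq2 called 1 member in KO+R (Cmpk2) and 5 in WT+R (Cmpk2, Mx2, Xaf1 and Samd9l lower, Irgm1 higher), against 3.11% and 3.64% of all genes. DESeq2 with the block called 5 in KO+R (Cmpk2, Xaf1, Ifit2, Samd9l and Gbp4, all lower, against 7.92% of all genes) and 6 in WT+R (Cmpk2, Mx2, Xaf1 and Samd9l lower, Tapbp and Irgm1 higher, against 6.66%), and genes in these counts beyond the 4 described above were named after their values were seen. Mx2 stood at 0 and 0.301 CPM in WT+R and at 0.598, 1.31 and 2.67 CPM in WT, so its fold change rests on few counts. Cd68 stood at 4.05, 10.0 and 15.7 TPM in KO+R and at 1.68 and 7.53 TPM in WT+R, against 17.6, 27.8 and 41.0 TPM in KO and 7.25, 22 and 14.4 TPM in WT. Acta2 stood at 112, 49.9 and 73.0 TPM in KO+R against 17.7, 32.5 and 37.8 TPM in KO, and at 438 and 512 TPM in WT+R against 26.4, 146 and 57.4 TPM in WT. The summed endothelial markers stood at 6340, 7334 and 7652 TPM in KO+R against 8165, 7876 and 8773 TPM in KO, and at 6160 and 6931 TPM in WT+R against 8511, 7425 and 9618 TPM in WT. The summed B cell markers ranged from 1.35 to 2.17 TPM in KO+R against 4.29 to 6.99 TPM in KO, and from 0.814 to 1.15 TPM in WT+R against 6.05 to 17.2 TPM in WT. Of these, only Cd68 in WT cells overlapped between the groups, and their part in the differences was not tested.

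Propranolol in KO cells left 0 of 42 genes called by edgeR, against 0.00674% of all genes, with 2 higher and 2 lower at an unadjusted p under 0.05 (6.93% and 5.67% of all genes), and 1 called by DESeq2 (1.08% of all genes). The groups did not overlap for 1 gene higher and 4 lower (9.58% and 9.11% of all genes), and 9 genes were higher and 17 lower in all 3 same-number pairs (24.8% and 26.5%). The gene called by DESeq2 was Rsad2, which stood at 58.7, 35.3 and 12.3 CPM in KO+P against 6.16, 11.7 and 7.82 CPM in KO. Every KO+P value lay above every KO value, and the KO+P values themselves differed widely. The log2 fold change was 2.05 ± 0.58 (4.14-fold), with an adjusted p of 0.28 in edgeR and 0.102 in edgeR with the block. In DESeq2 the adjusted p was 0.0224, and 0.00759 with the block, which called 7.12% of all genes. The edgeR fit also depended on the third library. Without KO+P replicate 3 the log2 fold change was 2.46, with an adjusted p of 0.0383 in edgeR, and Rsad2 was then the 1 member called. Cmpk2, its neighbour, stood at 13.4, 14.6 and 6.97 CPM in KO+P against 7.05, 8.43 and 6.84 CPM in KO (0.65 ± 0.30, adjusted p = 0.393 in edgeR). The third KO+P library was the one close to untreated cells for both genes. Samd9l stood at 28.6, 46.1 and 49.7 CPM in KO+P, below all KO values (−0.54 ± 0.20, adjusted p = 0.337 in edgeR).

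The guanylate binding proteins had the widest spread with propranolol. Summed over the 7 genes, they stood at 30.0, 65.1 and 125 CPM in KO+P against 126, 136 and 149 CPM in KO, and at 30.5 and 73.9 CPM in WT+P against 108, 102 and 99.9 CPM in WT. Both replicate 1 libraries with propranolol were thus at about the same low level, and KO+P replicate 3 was just under the lowest KO library. All 7 log2 fold changes lay below 0 in both genotypes (median −0.81 in KO+P and −1.02 in WT+P), also under each other scaling and without any single library. Without KO+P replicate 1 the median was −0.39 and without KO+P replicate 3 it was −1.32, and without WT+P replicate 1 or 2 it was −0.57 or −2.13. Without the library labelled WT replicate 1 the WT+P median was −0.99. None was called by edgeR in either genotype, with or without the block (0.142% of all genes in KO+P and 0.0809% in WT+P with it), while DESeq2 with the block called Gbp4 and Gbp9 lower in KO+P (7.12% of all genes). At an unadjusted p under 0.05 the count was 1 in KO+P and 2 in WT+P, all lower, where 5.67% and 3.17% of all genes were lower. Gbp9 stood at 4.33, 12.9 and 30.5 CPM in KO+P, below all KO values (−1.23 ± 0.56, adjusted p = 0.39 in edgeR). Gbp2 stood at 10.5 and 20.8 CPM in WT+P against 41.7, 29.5 and 21.8 CPM in WT (−0.98 ± 0.44, adjusted p = 0.49, and −0.72 with 0.823 without the library labelled WT replicate 1). Gbp3 stood at 3.93 and 11.6 CPM against 14.4, 20.6 and 18.3 CPM (−1.19 ± 0.54, adjusted p = 0.499 in edgeR, and −1.32 with 0.811 without that library).

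In WT+P, 36 of the 42 genes had a log2 fold change below 0 (median −0.44, against 0.00 for all genes, of which 49.6% lay below 0). Without the block none was called by edgeR (0 of 42, against 0.00674% of all genes) or DESeq2 (0.835%). At an unadjusted p under 0.05, 4 were lower and 0 higher (3.17% and 6.7% of all genes). The groups did not overlap for 14 genes lower and 0 higher (10.3% and 10.8% of all genes). In both same-number pairs 26 genes were lower and 4 higher, against 31.2% and 30.6% of all genes. With the block edgeR called 0, against 0.0741% of all genes higher and 0.00674% lower. DESeq2 with the block called 1 lower, Ifit3 (adjusted p = 0.0386), against 0.737% of all genes. Ifit3 stood at 2.03 and 9.62 CPM in WT+P against 5.34, 16.0 and 7.75 CPM in WT, with overlap, and was named after its values were seen. The median rested on WT+P replicate 1: it was −0.11 without that library and −0.78 without WT+P replicate 2, and it was −0.50 (40 below 0, and 0 called) without the library labelled WT replicate 1. All 3 immunoproteasome subunits lay below 0 in both genotypes, also without any single library (median −0.63 in WT+P and −0.43 in KO+P). Psmb8 stood at 10.3 and 19.2 CPM in WT+P against 24.9, 25.9 and 18.0 CPM in WT (−0.63 ± 0.28, adjusted p = 0.496, and −0.58 with 0.815 without the library labelled WT replicate 1, edgeR). Samd9l stood at 37.5 and 50.6 CPM in WT+P, below all WT values (−0.56 ± 0.22, adjusted p = 0.475, and −0.64 with 0.811 without that library). Rsad2 reached 16.3 CPM in WT+P replicate 1 but 5.21 CPM in replicate 2. Over all 42 genes in KO+P the median was −0.13 (28 below 0, against 50.7% of all genes), and it reached 0.01 without KO replicate 2 and −0.27 without KO+P replicate 2.

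The libraries differed in how far they moved with propranolol over all genes, not only over the group. The median absolute log2 ratio between a KO+P library and the KO library of the same number was 0.446, 0.31 and 0.112 for the 42 genes in pairs 1, 2 and 3, and 0.349, 0.24 and 0.152 for all genes tested. In the WT+P pairs it was 0.624 and 0.246 for the 42 genes and 0.364 and 0.146 for all genes. The summed endothelial markers followed the same order, at 4595, 6180 and 7644 TPM in KO+P against 8165, 7876 and 8773 TPM in KO, and at 4275 and 7062 TPM in WT+P against 8511, 7425 and 9618 TPM in WT. Their part in the values of the guanylate binding proteins was not tested.

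Whether a drug acted differently in KO and WT cells was asked by the interaction of drug and genotype. No member was called for either drug (0 of 42 each, with edgeR and with DESeq2, against 0% of all genes in edgeR, and 0 at an unadjusted p under 0.05, against 0.377% higher and 0.344% lower for propranolol and 0.458% and 0.303% for rapamycin). The median of the 42 interactions was 0.23 for propranolol (35 above 0) and −0.09 for rapamycin (15 above 0). For propranolol the smallest p-values were those of Ifit1 (1.31 ± 0.76), Cmpk2 (0.76 ± 0.45), Xaf1 (0.54 ± 0.35) and Ifi35 (0.26 ± 0.22, log2 scale, KO minus WT), with adjusted p-values of 1. Ifit1 stood at 9.58, 14.2 and 7.54 CPM in KO+P against 3.45, 10.1 and 6.13 CPM in KO, and at 3.84 and 6.7 CPM in WT+P against 4.46, 10.5 and 9.68 CPM in WT, so it lay above the untreated library of its number in 3 of 3 KO pairs and below it in both WT pairs. For rapamycin they were Irgm1 (−0.64 ± 0.40), Mx2 (1.90 ± 1.5), Ifit2 (−0.99 ± 0.97) and Gbp6 (−0.60 ± 0.65), again with adjusted p-values of 1 in edgeR. Without the library labelled WT replicate 1 no member was called for either drug, and these interactions kept their sign, from 0.31 (Ifi35) to 1.62 (Ifit1) for propranolol, and at −0.41 (Irgm1), 2.29 (Mx2), −0.72 (Ifit2) and −0.44 (Gbp6) for rapamycin. The interaction of Ifit2 changed sign without WT+R replicate 2 (0.71, adjusted p = 1).

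Of 139 further genes of the pathway that are not in the group, 115 were tested. In edgeR without the block 1 of the 115 passed the test, in WT+R, where 1.4% of all genes were called. It was Ifngr2, a chain of the receptor for interferon gamma, which stood at 142 and 110.3 CPM in WT+R and at 85.7, 72.7 and 68.9 CPM in WT. Ifngr2 rose 1.66-fold (0.73 ± 0.15, adjusted p = 0.0309, edgeR). The call held without the library labelled WT replicate 1 (0.83, adjusted p = 0.0482) and was lost in the other 4 fits that left a library out, with adjusted p-values up to 0.377. In KO+R Ifngr2 stood at 127, 106 and 91.8 CPM against 86.4, 83.2 and 71.0 CPM in KO, a difference of 1.35-fold that is under the threshold of 1.5. With the block, Lgals9 (galectin 9), Slfn2 and Ifi204 were called lower in KO+R, and Lgals9 and Ifi204 in WT+R, out of 54 other interferon-stimulated genes tested, where 3.04% and 2.39% of all genes were called lower. Lgals9 stood at 155, 171 and 182 CPM in KO+R against 300.0, 309 and 322 CPM in KO (−0.88 ± 0.20, adjusted p = 0.0216 with the block and 0.144 without, edgeR). Slfn2, which keeps lymphocytes quiescent, stood at 4.18, 3.98 and 3.83 CPM in KO+R against 8.06, 16.0 and 19.6 CPM in KO (−1.72 ± 0.40, adjusted p = 0.0275 with the block and 0.161 without, edgeR). In WT+R the blocked log2 fold changes were −0.89 ± 0.23 for Lgals9 (adjusted p = 0.0436) and −1.21 ± 0.29 for Ifi204 (adjusted p = 0.0348), and without the library labelled WT replicate 1 the adjusted p-values were 0.153 and 0.0285. Among these 54 genes, 49 log2 fold changes lay below 0 in KO+R (median −0.26) and 38 in WT+R (median −0.20). In KO against WT 39 lay above 0 and 15 below (median 0.11), where 51.2% of all genes lay below 0. At an unadjusted p under 0.05 in edgeR, 4 were higher and 0 lower there, against 3.3% and 2.77% of all genes. These counts and medians against WT include the library labelled WT replicate 1.

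Beyond these genes the lists held no edgeR call, with or without the block. DESeq2 called 1 of the 115 higher in KO against WT (0.478% of all genes), 2 lower in KO+R (3.11%) and 1 higher in WT+R (3.64%). With the block DESeq2 called 2 higher in KO against WT (2.67%), and 2 higher and 6 lower in KO+P (7.12%). In KO+R it then called 1 higher and 7 lower (7.92%), and in WT+R 2 higher and 2 lower (6.66%). The medians of the 9 receptors and kinases were 0.05 in KO+R, 0.10 in WT+R, −0.31 in KO+P and −0.13 in WT+P, and those of the 9 sensors and adaptors were −0.20, −0.12, −0.36 and −0.08. In KO+P all 9 receptors and kinases lay below 0, and 4 were lower at an unadjusted p under 0.05 in edgeR (5.67% of all genes). The groups did not overlap for 4, all lower (9.11% of all genes), and DESeq2 with the block called 2 lower. The 6 tested of 9 other interferon GTPases had medians of −0.44 in KO+P and −0.71 in WT+P, all 6 below 0 in both, and of 0.08 and 0.06 with rapamycin. The 7 feedback regulators had medians between −0.14 and 0.05 in all 5 comparisons, the 17 tested of 20 other class I pathway genes between −0.26 and −0.01, and the 7 constitutive proteasome subunits between −0.11 and 0.05. Of 9 class II pathway genes 5 were tested, with medians from −0.30 (WT+R) to 0.81 (KO+P). Of 3 interferon-induced chemokines only Cxcl10 was tested, with log2 fold changes from 0.04 (KO+R) to 1.10 (KO vs WT), none called.

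The genes also varied with the replicate number of the library. The number accounted for a median of 35.0% of the variance of the 42 genes (log2 of CPM + 1), against 23.4% over all genes. The group of genotype and drug accounted for 43.5% and 44.8%. The design is unbalanced, so the shares overlap and do not add up. They are not corrected for having 6 groups but 3 numbers, so group and number cannot be ranked by them. The share of the number was highest for Ifit3 (78.0%), Irf7 (72.7%), Trim25 (69.8%) and Zbp1 (68.9%), and lowest for Rsad2 (0.0834%), whose variation lay between the groups (79.6%). For Cmpk2 the group accounted for 88.5% and the number for 1.62%. Irf7, the factor that amplifies the interferon response, stood at 3.63, 13.7 and 9.35 CPM in WT and at 4.34, 10.9 and 9.41 CPM in KO, and it was lowest in replicate 1 of every group but KO+R, where the values were 5.4, 5.0 and 6.41 CPM. Replicate 1 was the lowest of the 3 libraries for 29 of 42 genes in WT, 32 in KO and 32 in KO+P, where 34.7%, 39.1% and 39.6% of all genes were lowest, and for 16 of 42 in KO+R, against 40.8%. Irf1, a factor that interferon gamma induces, ran the other way, at 62.8, 35.4 and 36.1 CPM in WT and 58.0, 38.7 and 42.5 CPM in KO, with 103 CPM in WT+R replicate 1 and 91.2 CPM in KO+R replicate 1. Other annotated genes cover 46% of the exonic bases of Irf1.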

How the data were processed

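RNA-seq of poly(A) RNA was available for 16 libraries, unstranded and paired-end. The authors deposited for each library a Salmon table that gives, transcript by transcript, the expected count, the TPM and the effective length. The expected counts deposited were not normalized between libraries, and the TPM deposited are scaled within each. The submitters' processing notes list Salmon 1.5.2, Trim Galore 0.6.7, HTSeq 0.13.5, DESeq2 1.34.0 and the build GRCm39, while the transcript index is not given in the sources used here. The effective lengths deposited by the authors, a score for the usable length of each transcript, served as an offset in an alternative.

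Of 140789 transcripts, 139544 (99.12%) were matched by identifier to the GENCODE annotation of GRCm39, with 99.43 to 99.61% of the counts of a library. Counts were summed per gene and rounded. Genes with few counts were removed with filterByExpr, which left 14838 of 27228 genes with any count. All libraries were fitted in edgeR 4.0.16 (R 4.3.3) by quasi-likelihood with 6 group means and TMM factors of 0.934 to 1.041, and p-values were adjusted by Benjamini-Hochberg over all genes tested. A gene was called at an adjusted p-value below 0.05 together with a fold change of over 1.5, an interaction at the adjusted p-value alone. The residual degrees of freedom were 10, and 8 with the block. Common dispersion corresponded to a variation of 32.3% between cultures (19% in the blocked model). For members with few counts, such as Mx2 and Zbp1, counting error adds to it. CPM values use TMM. The script was tested on simulated data. Alternatives were DESeq2 1.42.0 with and without the block, its size factors in edgeR, no filter, the effective length offset, only the groups compared, and each library left out.

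Pairing was checked as the correlation of deviations from the group mean between libraries that share a number. It was 0.19 to 0.62 (KO and WT), 0.31 to 0.58 (KO+P and KO), 0.41 to 0.62 (KO+R and KO), 0.49 to 0.56 (WT+P and WT) and 0.6 to 0.69 (WT+R and WT). Over 36 pairs of the same number the median was 0.52 (0.032 to 0.69), and over 70 other pairs it was −0.23 (−0.69 to 0.4), so the ranges overlapped. Deviations were taken from group means, so these sets of pairs are not independent of each other. The block was therefore used as a pairing, which the labels do not state.

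The genes of the group, their roles and the lists beside them were chosen with earlier results of these data known. Fold changes with tests are given, for each comparison, for members called with or without the block, or otherwise for the 4 with the smallest p-values, and for at most 2 called genes of each other list, to which Ifi204 was added after its values were seen. Genes whose exons overlap another gene, and close paralogs such as the guanylate binding proteins, are uncertain.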

Additional observations from a re-analysis of the deposited data

How the results depend on the processing

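Of the alternative counts of members called, 87 were within 1.5 times the count reported and 17 were not. The count reported was 0 everywhere but in KO+R, so agreement elsewhere is 0 against 0 and says little about how stable a call is. In KO+R 1 member was called, against 3 with the replicate block, 5 with DESeq2 and the block, and 0 without any single library. In WT+R 0 were called, against 3 with the replicate block, 5 with DESeq2, 6 with DESeq2 and the block, 1 without the filter on low counts, and 1 with the replicate block and without WT replicate 1. In KO+P 0 were called, against 1 with DESeq2, 3 with DESeq2 and the block, and 0 to 1 with single libraries left out. In WT+P 0 were called, against 1 with DESeq2 and the block. The replicate block changed no other call. Of 390 alternative fold changes of named members, 364 kept direction and side of the threshold, 19 passed it and 6 lost it. One reversed: the rapamycin by genotype interaction of Ifit2 was 0.71 without WT+R replicate 2, against −0.99, and −1.74 without WT+R replicate 1. The cause of these differences was not tested. DESeq2 size factors moved the libraries by −0.02 to 0.02 on the log2 scale. With 2 libraries each, WT+P and WT+R rest on pairs, and single libraries left out there leave an arm of 1, assumed to vary like the other groups.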
